A study of Homo sapiens with 11 samples.

Results

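Promoter H3K4me3 was compared between BEAS-2B cells during a long nickel exposure and the same line left unexposed. The comparison holds the H3K4me3 library of UT cells, which had no nickel, and that of Ni-E cells, which were kept in 100 μM NiCl2 for 6 weeks, that is 2 of the 11 samples of the series analysed here. BEAS-2B is an established line of immortalized human bronchial epithelium that does not form tumours by itself, grown in medium with serum. Each library gives a level for 26237 genes, and all of them were members of the comparison. The study describes ChIP on 2 biological replicates, but the files hold a single library for each condition (n = 1), so no difference below has a replicate check and none was tested. A library of Ni-W cells, a population that grew out of 1 exposed colony and was kept without nickel for more than 6 months, is cited for a few promoters only, at unscaled levels.

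H3K4me3, trimethylation of lysine 4 of histone H3, marks the nucleosomes around the start of active and poised genes and is laid down by the SET1 and MLL complexes and removed by JmjC demethylases of the KDM5 family. These demethylases, like the prolyl hydroxylases that hold the hypoxia-inducible factor (HIF) in check, need iron and oxoglutarate, and nickel ions can take the place of the iron. Nickel compounds are human lung carcinogens with little direct mutagenicity, which is why chromatin marks are examined in exposed airway cells.

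The level of a promoter is its RPKM, the reads per kilobase and per unit of sequencing depth in a window of 4 kb, 2 kb on each side of the gene start. A level of 1 RPKM corresponded to 114 reads in UT cells and 150 in Ni-E cells, and depth was 28385725 and 37493949 non-redundant reads. The windows took 37.6% of the depth in UT cells and 36.0% in Ni-E cells, with reads in overlapping windows counted more than once. In Ni-W cells they took only 22.9%, so Ni-W levels cannot be read directly against those of UT or Ni-E cells. A promoter was examined if it had at least 1 RPKM in either library, which held for 13935 promoters (53.1%). The Ni-E to UT ratio was centred on the median of these promoters, which was 0.952 before centring. A promoter was called higher or lower when its centred ratio reached 1.5-fold, and each ratio has an exact 95% interval from its reads that covers counting error only.

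Both epithelial and mesenchymal marker genes carried H3K4me3 in these cells. The simple-epithelial keratin promoters KRT8 and KRT18 were at 7.33 and 7.26 RPKM in UT cells, VIM (vimentin) at 8.95 and CDH2 (N-cadherin) at 14.6. CDH1 (E-cadherin) was at only 1.02 RPKM, and the basal markers KRT5 and TP63 were below 1 RPKM. Of the 10 airway epithelial markers 7 reached 1 RPKM in UT cells, as did 5 of 6 mesenchymal, 2 of 7 differentiated airway, 1 of 4 endothelial and 1 of 5 blood markers, with PTPRC at 0 in both libraries. None of these markers was called. The summed level of the epithelial markers was 32.7 RPKM in UT and 31.5 in Ni-E cells, and that of the mesenchymal markers 41.6 and 38.2.

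Most promoters kept their H3K4me3 level during exposure. The log2 ratios of the promoters examined had a 5th percentile of -0.31 and a 95th percentile of 0.22, and the ratios ran from 0.384-fold to 2.34-fold. Only 73 promoters were called higher in Ni-E cells (0.524% of those examined) and 147 lower (1.05%), or 1.58% in either direction. Since neighbouring genes share reads, these amounted to 61 and 140 separate loci of 4 kb. Of the called promoters, 33 of those higher and 72 of those lower passed the minimum only through the library in which they were high. Among the 13596 promoters with 1 RPKM in both libraries, 40 were called higher and 75 lower. The split depended on the centre of the ratio, with 55 higher and 212 lower without centring, 118 and 79 when centred on all listed promoters and 90 and 92 after quantile normalization. It depended on the minimum too, with 285 and 247 at 0.5 RPKM. The counting interval excluded no change for all 220 called promoters, an outcome that the fold and the minimum level nearly fix in advance. It did so for 26.2% of all promoters examined, and the spread of the ratios was larger than counting error at every level. Among promoters of 1 to 2 RPKM the standard deviation of the log2 ratio was 0.35, where counting alone gives 0.16, and 3.37% were called higher and 7.39% lower. Above 8 RPKM the standard deviation was 0.11 and 4 of 4383 promoters were called higher and 0 lower. Called promoters were therefore mostly weakly marked ones, with a median UT level of 1.06 RPKM for those called higher and 1.77 for those called lower, against 6.16 for all examined. Without replicates, the spread beyond counting between cultures of 1 condition is unknown.

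**Figure D1:**
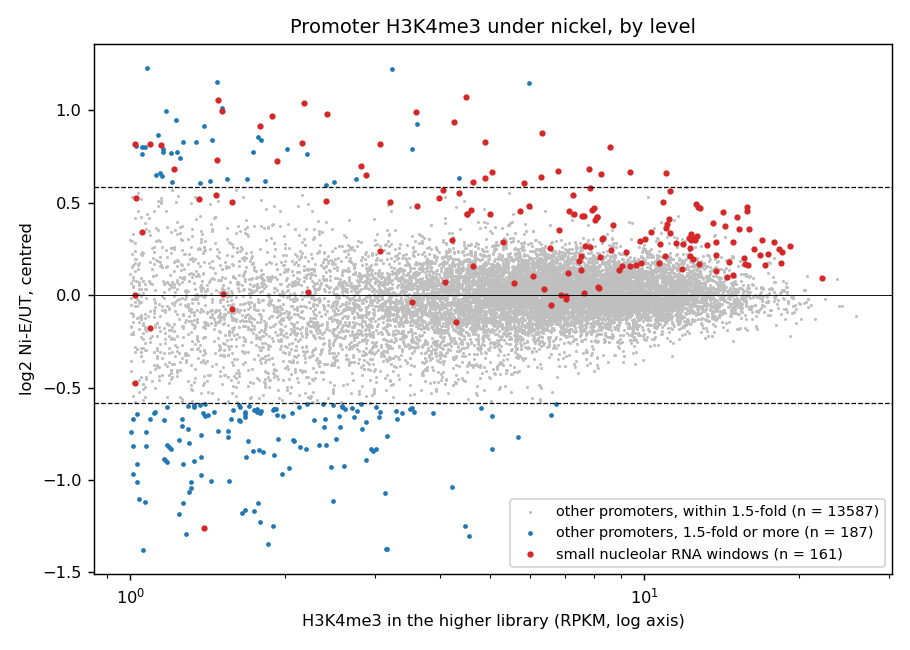
Centred log2 Ni-E to UT ratio of each promoter examined against its level in the higher library (RPKM, log axis), 1 library per condition, with dashed lines at 1.5-fold. The ratios narrow as the level grows, and 150 of the 161 small nucleolar RNA windows (red) lie above 0.

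The group that stood out among the promoters called higher was not a set of protein-coding genes. Small nucleolar RNAs guide the chemical modification of ribosomal and spliceosomal RNA, box C/D members directing methylation and box H/ACA members pseudouridylation, and most human ones have no promoter of their own but are cut from introns of a host gene. The window around such a gene therefore covers chromatin of the host, and includes the host's start only where the RNA lies within 2 kb of it. Of 453 listed small nucleolar and small Cajal body RNA windows, 161 were examined and 32 of these (19.9%, against 0.524% of all promoters) were called higher, 1 was called lower, and the median ratio was 1.26. They made up 32 of the 73 promoters called higher. The interval lay above 0 on the log2 scale for 138 of them (85.7%), against 12.5% of all promoters examined. Of the 161, 11 reached 1 RPKM in Ni-E cells only. Among the 146 with at least 1 RPKM in both libraries, 24 (16.4%) were called higher and 0 lower, against 0.294% and 0.552% of all 13596 such promoters. Box C/D genes (SNORD) had a median log2 ratio of 0.38 over 104 windows and box H/ACA genes (SNORA) 0.31 over 51, the highest of 92 symbol families with at least 15 promoters examined. Of the 292 windows not examined, 267 were below 0.5 RPKM in both libraries.

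The sequences of 3 box C/D RNAs whose windows were called higher are shown, since the short conserved boxes are what place them in this class. In each, the first TGATGA (box C) and the last CTGA (box D) are in capitals, and they were read from hg38 on the minus strand, SNORD14E at chr11:123058077-123058156, SNORD81 at chr1:173864146-173864222 and SNORD80 at chr1:173864833-173864903.
SNORD14E: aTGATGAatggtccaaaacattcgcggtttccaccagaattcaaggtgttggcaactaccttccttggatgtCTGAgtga
SNORD81: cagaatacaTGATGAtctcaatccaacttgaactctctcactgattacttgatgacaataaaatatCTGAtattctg
SNORD80: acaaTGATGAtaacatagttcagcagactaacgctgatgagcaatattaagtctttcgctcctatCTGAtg
These genes are 71 to 80 bases long, far shorter than the window of 4 kb centred on them. SNORD14E lies in HSPA8, which encodes a constitutive heat shock protein, and SNORD80 and SNORD81 lie in GAS5, a noncoding gene that carries a series of such RNAs in its introns.

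Position within the host went with the size of the difference. A host gene listed in the table could be given to 151 of the 161 windows, in 75 hosts, of which 27 encode ribosomal proteins and 13 are small nucleolar RNA host genes (SNHG). None of the 75 hosts was called at its own promoter. The median ratio of the host promoters was 1.12, with 68 of 75 above 1, and 136 of the 151 windows had a higher ratio than their own host promoter. The 25 windows centred within 1 kb downstream of the host start had a median ratio of 1.16, the 35 at 1 to 2 kb 1.19, the 71 at 2 to 4 kb 1.39 and the 20 at 4 to 8 kb 1.76. The 18 windows called higher at 2 to 4 kb and the 14 at 4 to 8 kb account for all 32, and 0 of the 60 windows closer than 2 kb, which include the host start, was called. At 2 to 4 and 4 to 8 kb, 5 and 6 of these windows reached 1 RPKM only in Ni-E cells, where they were high. Among windows with 1 RPKM in both libraries the medians there were 1.38 (n = 64, 15 called higher) and 1.76 (n = 13, 9 called higher). At 4 to 8 kb 30 of the 50 listed windows were too weak to be examined, and those of them with reads in both libraries had a median of 1.195. The median UT level went the other way, from 10.7 RPKM within 1 kb to 1.31 at 4 to 8 kb. Windows of 1 host overlap and are not independent. With 1 value per host, the median of its windows, the median log2 ratio was 0.32 over 75 hosts and exceeded the host's own promoter in 64.

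**Figure D2:**
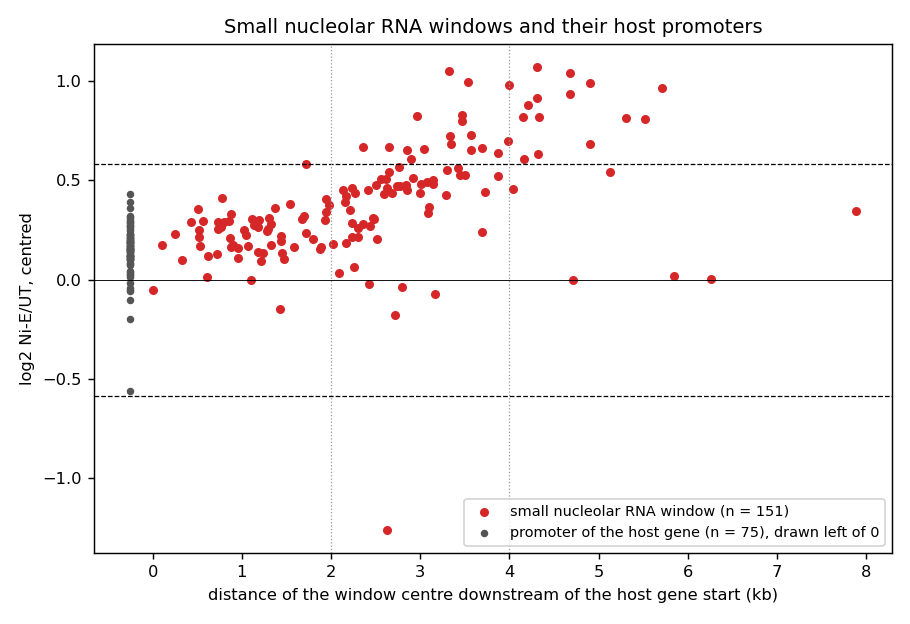
Centred log2 Ni-E to UT ratio of each small nucleolar RNA window with a host (red, n = 151) against the distance of its centre downstream of the host start (kb), with the 75 host promoters drawn left of 0 in grey. Windows centred within 2 kb of the host start lie below the upper dashed line (1.5-fold), and the 32 called higher are all centred more than 2 kb from it.

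GAS5 shows the pattern within a single gene. Its own promoter was at 12.1 RPKM in UT and 14.4 in Ni-E cells, a log2 ratio of 0.32. SNORD74, centred 1.37 kb downstream, was at 12.5 and 15.3 RPKM (1.28-fold). SNORD44, at 3.08 kb, was at 9.43 and 12.6 RPKM (1.41-fold). Further in, the levels were lower in both libraries, but less so in Ni-E cells. SNORD79, at 3.70 kb, was at 6.23 and 9.40 RPKM (1.58-fold), SNORD80, at 4.21 kb, at 3.62 and 6.33 (1.84-fold), and SNORD81, at 4.90 kb, at 1.90 and 3.59 (1.98-fold). GAS5-AS1, whose start lies beyond the centres of these windows, was called higher with them at 0.643 and 1.07 RPKM (1.74-fold) and passed the minimum only through Ni-E cells. It had the lowest level here but not the highest ratio.

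Windows far into HSPA8 and NOP56 also had higher ratios than the promoter. HSPA8 had 15.5 RPKM in UT and 15.8 in Ni-E cells at its promoter, a ratio of 1.07, whereas SNORD14C, 3.04 kb downstream, had 7.31 and 11.002 (1.58-fold), SNORD14D, at 3.47 kb, 5.18 and 8.58 (1.74-fold) and SNORD14E, at 4.31 kb, 2.25 and 4.49 (2.10-fold). NOP56 encodes a core protein of box C/D particles and carries box C/D RNAs itself. Its promoter had 18.7 and 18.1 RPKM (1.02-fold after centring), while SNORD86, at 3.46 kb, had 2.89 and 4.89 (1.78-fold), SNORD56, at 3.99 kb, 1.29 and 2.41 (1.97-fold) and SNORD57, at 4.31 kb, 0.995 and 1.79 (1.89-fold). GNL3, a nucleolar GTP-binding protein gene, had a promoter ratio of 1.08, against 1.77 for SNORD136 and 2.07 for SNORD19 (0.749 and 1.48 RPKM) within it. SNORD57 and SNORD19 passed the minimum only through Ni-E cells, in which they were high. Other examples were SNORA74A in MATR3 (1.11 and 2.17 RPKM, 2.06-fold), SNORA69 in RPL39 (1.82 and 3.06, 1.76-fold) and SNORD83B in RPL3 (1.01 and 1.89, 1.96-fold). Not every window followed. Of the 151 windows, 15 had a ratio no higher than their host promoter, among them SNORA40 in TAF1D (1.52 and 1.45 RPKM, 1.003-fold against 1.14-fold for the host) and SNORD144 in SEC31A (7.05 and 6.61, 0.985-fold against 1.14-fold). SNORD123 in SNHG18 was called lower at 1.39 and 0.553 RPKM (0.417-fold), beside a host promoter at 6.28 and 4.05 RPKM. SNORD123 passed the minimum only through UT cells, in which it was high.

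Other genes that start near a strong promoter had ratios near 1. Among listed windows that were not of this class, centred 2 to 4 kb downstream of a promoter with at least 4 RPKM in both libraries and weaker than it, the median ratio was 1.01 (n = 85), with 0 called higher and 3 lower. At 4 to 8 kb it was 0.937 (n = 129), with 0 higher and 1 lower. The small nucleolar RNA windows chosen in the same way had 1.39 (n = 59) and 1.68 (n = 16). At 2 to 4 kb upstream of such a promoter they had 1.58 (n = 7, 4 called higher and 0 lower). The other windows there had 0.974 (n = 73, 1 called higher and 2 lower). The sets are unlike, since most small nucleolar RNA genes have no promoter of their own. This comparison and the one by distance were chosen after the values were seen. The 32 windows were also poorer in GC than the rest, with a median of 43.8% over the window against 51.5% for all promoters examined with a position, and the ratio varied slightly with GC, from a median of 1.02 in the 2712 promoters poorest in GC to 0.961 in the 2690 richest. The part of GC content, and of the low level of these windows, in the result was not tested. In Ni-W cells, where the windows held only 22.9% of the reads, SNORD81 was at 1.90 RPKM and SNORD14E at 1.40.

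The promoters of cytoplasmic ribosomal protein genes were slightly higher as a group, with no member called. Of 84 listed cytoplasmic ribosomal protein genes 79 were examined, and 75 of them had a ratio above 1, with a median of 1.12 and a range of 0.913 to 1.35. The interval lay above no change for 60 of the 79 and below it for 1. The 3581 promoters in the range of UT levels that the middle of this list spans (7.70 to 11.8 RPKM) had a median of 1.01. RPS2 was among the hosts above, at 9.08 RPKM in UT and 11.6 in Ni-E cells. Replication-dependent histone genes, which are transcribed in S phase to package new DNA, had a median ratio of 1.13 over 50 promoters, with 47 above 1, 30 intervals above no change and 0 below. Here the 4606 promoters of like level (3.84 to 6.74 RPKM) had a median of 1.00. Histone genes lie in clusters, so that neighbouring windows share reads. The families with the next highest medians after the small nucleolar RNAs were SNHG, with a median log2 ratio of 0.20, and HIST, with 0.15. At the other end were ABHD (-0.13), GPR (-0.11), ARHGEF (-0.09) and TSPAN (-0.08), with 0, 1, 0 and 0 called lower and the same numbers called higher.

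**Figure D3:**
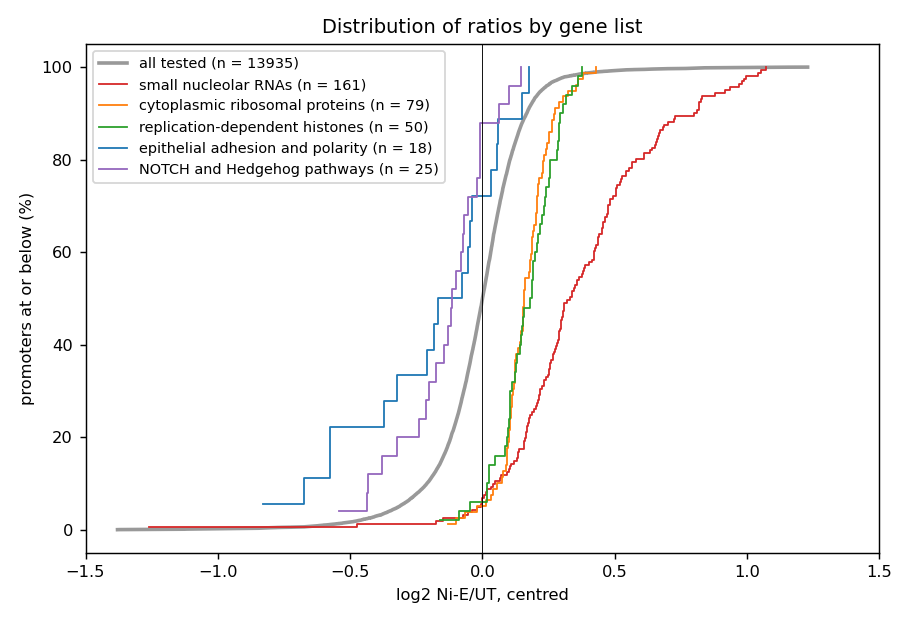
Cumulative share of promoters (%) at or below each centred log2 Ni-E to UT ratio, for all 13935 promoters examined and 5 gene lists. The small nucleolar RNA, ribosomal protein and histone curves lie right of the curve of all promoters, and the epithelial adhesion and NOTCH and Hedgehog curves left of it over most of their length.

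Apart from this class, 41 promoters were called higher, and 16 of them had at least 1 RPKM in both libraries. The largest ratio among promoters reaching 2 RPKM was that of PDLIM3, an actin-associated PDZ and LIM domain protein of muscle, at 1.45 RPKM in UT and 3.23 in Ni-E cells (2.33-fold, interval 1.95 to 2.80). PPP1R14C, which encodes an inhibitor of protein phosphatase 1, was at 2.83 and 5.96 (2.21-fold, 1.95 to 2.52). The read intervals of each promoter did not overlap between the libraries, but both promoters were picked by their ratios. In Ni-W cells, where the windows held only 22.9% of the reads, PDLIM3 was at 1.92 RPKM and PPP1R14C at 2.89. These levels were not scaled to the other libraries, so they do not place either promoter relative to UT cells. PCDH18, a protocadherin outside the gene clusters, was at 2.00 and 3.62 RPKM (1.90-fold). SLC9A2, a sodium-proton exchanger, was at 1.22 and 2.02 (1.73-fold), JPH1, which holds the sarcoplasmic reticulum to the plasma membrane, at 2.15 and 3.54 (1.73-fold), and ADGRG2, an adhesion receptor, at 1.37 and 2.21 (1.70-fold).

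Most of the other promoters called higher were weak ones. Clustered protocadherins, cell-surface cadherins of neurons expressed from tandem arrays, had 57 genes listed, and 14 were examined. PCDHB1 (0.775 and 1.39 RPKM, 1.89-fold), PCDHAC1 (0.793 and 1.34, 1.77-fold) and PCDHB15 (0.784 and 1.247, 1.67-fold) were called higher, and 0 were called lower. The 3 are 21.4% of those examined, against 0.524% of all promoters. All 3 passed the minimum only through the Ni-E library, in which they were high, and of the 10 members at 1 RPKM in both libraries 0 were called. The median ratio was 1.22 over the 14 and 1.16 over these 10. Chosen after their values were seen, LRRTM1 (0.70 and 1.47), SLITRK2 (0.48 and 1.08), LRRC4C (0.62 and 1.17), ANK2 (0.65 and 1.13) and PDPN (0.78 and 1.51) were called higher as well, and each passed the minimum only through Ni-E cells. GPM6B (1.03 and 1.77) was above it in both libraries. G protein-coupled receptors had 3 of 63 called higher (4.76%, against 0.524% of all promoters), among them GPR12 (1.06 and 1.80 RPKM) and BDKRB1 (0.845 and 1.44), a bradykinin receptor below 1 RPKM in UT cells. They had 2 called lower (3.17%, against 1.05%), GPR135 (2.97 and 1.57) and P2RY6 (1.18 and 0.640). P2RY6 passed the minimum only through UT cells, in which it was high. The list is weakly marked, with a median UT level of 2.93 RPKM. Of all promoters of 1 to 2 RPKM 3.37% were called higher and 7.39% lower, and of those of 2 to 4 RPKM 0.678% and 2.17%. Solute carriers had 3 of 185 higher (1.62%) and 2 lower (1.08%). Of 304 microRNA windows 5 were called higher (1.64%) and 3 lower (0.987%). Of the 5, 4 passed the minimum only through Ni-E cells, and MIR3064 and MIR5047 share a locus.

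**Figure D4:**
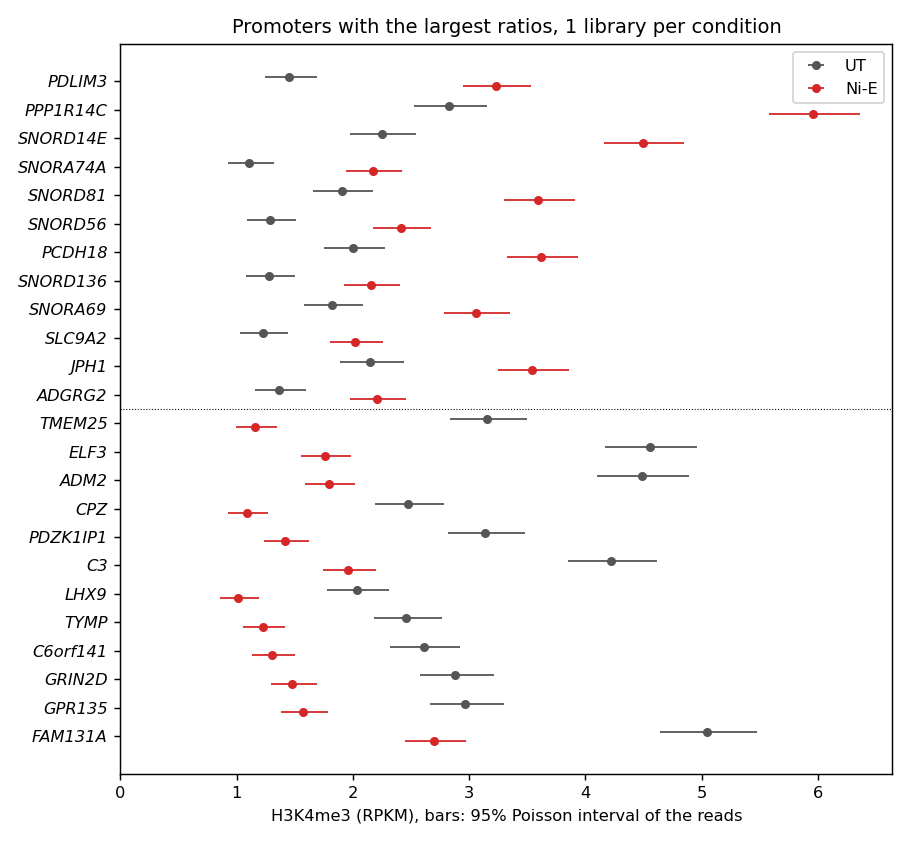
H3K4me3 level (RPKM) in UT (grey) and Ni-E (red) cells of the 12 promoters with the highest and the 12 with the lowest ratios among called promoters reaching 2 RPKM, with 95% Poisson intervals of the reads, 1 library per condition. The intervals of the libraries do not overlap for any of the 24 promoters, which follows largely from their choice by ratio and level.

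The lowest ratios among promoters reaching 2 RPKM included that of a transcription factor of epithelia, and a few adhesion genes were called lower. As given above, none of the airway epithelial markers was called. ELF3, an epithelium-specific ETS transcription factor, was at 4.55 RPKM in UT and 1.76 in Ni-E cells (0.406-fold, interval 0.349 to 0.472). Its level in Ni-W cells, not scaled to the other libraries, was 3.20. CDH3 (P-cadherin) was at 2.19 and 1.17 (0.562-fold), CLDN7, a tight junction claudin, at 2.28 and 1.36 (0.626-fold), KRT17, a keratin of basal and stressed epithelium, at 1.93 and 1.17 (0.639-fold), and PPL (periplakin), which links keratin to desmosomes, at 1.01 and 0.493 (0.511-fold), so that it passed the minimum through the UT library alone, in which it was high. Of the 18 members of the epithelial adhesion and polarity list that were examined, 2 were called lower (11.1%, against 1.05% of all promoters and 2.17% of those of 2 to 4 RPKM) and 0 higher. In this list 13 had a ratio below 1, with a median of 0.918 and 7 intervals below no change against 1 above. CLDN3 (2.08 and 1.33 RPKM, 0.670-fold) and CDH1 (1.02 and 0.653, 0.671-fold) were just outside the threshold, whereas CTNNB1 (1.04-fold) and F11R (1.04-fold) were near 1. Desmosome components had 10 of 11 ratios below 1, with a median of 0.944, JUP (plakoglobin) at 5.21 and 3.83 RPKM (0.772-fold) and PPL alone called. DSP (desmoplakin) was the exception at 5.73 and 7.24 (1.32-fold). Of 26 keratins listed only 5 were examined, and 4 of these had a ratio above 1, with a median of 1.01 and KRT7 at 7.15 and 8.27 (1.21-fold). Chosen after their values were seen, MAL2 (3.16 and 1.77), a protein of apical transport, and EPPK1 (2.21 and 1.40), epiplakin, were also called lower.

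Of 14 promoters of transcription factors of the epithelial-mesenchymal transition, none was called. With 1.58% of all promoters called, a list of this size could well hold no call. The median ratio was 1.08, 9 of 14 ratios were above 1, and 5 intervals lay above no change and 1 below. SNAI2 was at 3.68 and 4.05 RPKM (1.15-fold), TWIST2 at 2.97 and 3.53 (a log2 ratio of 0.32), ZEB1 at 10.3 and 9.54 (0.972-fold) and TWIST1 at 7.36 and 6.43 (0.917-fold). The highest ratio was that of GSC, a weak promoter at 0.740 and 1.03 RPKM (1.47-fold), and OVOL2, which restrains the transition, was at 2.69 and 3.27 (1.28-fold). Mesenchymal marker genes had a median of 0.958, with 0 of 20 called.

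Other promoters called lower belonged to genes of varied function. TMEM25, a membrane protein, had the lowest ratio among promoters with a position that reached 2 RPKM, at 3.15 RPKM in UT and 1.16 in Ni-E cells (0.386-fold, interval 0.321 to 0.464). LOC101929089, which has no position here, had nearly the same levels (3.14 and 1.15 RPKM, 0.385-fold). ADM2, a peptide of the calcitonin family, was at 4.48 and 1.79 (0.420-fold), CPZ, a carboxypeptidase that binds WNT proteins, at 2.48 and 1.09 (0.461-fold), PDZK1IP1, a small epithelial membrane protein, at 3.14 and 1.42 (0.476-fold), and TYMP, thymidine phosphorylase, at 2.46 and 1.23 (0.524-fold). LHX9, a LIM homeobox factor, was at 2.03 and 1.01 (0.523-fold), and GRIN2D, a glutamate receptor subunit, at 2.88 and 1.48 (0.540-fold). The complement component C3 was at 4.22 and 1.96 RPKM (0.488-fold). C1R (3.37 and 2.07), C1S (1.37 and 0.77) and the innate receptor TLR2 (2.81 and 1.78), chosen after their values were seen, were called lower too. HAS2 (1.79 and 0.73), which makes hyaluronan, and its antisense gene HAS2-AS1 (1.29 and 0.500) have partly overlapping windows. In Ni-W cells they were at 2.66 and 1.92 RPKM, again without scaling. C1S, HAS2 and HAS2-AS1 passed the minimum only through the UT library, in which they were high.

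Lists of immune, metabolic and signalling genes had few calls, nearly all lower. Chemokine, cytokine and NF-kB genes had 2 of 33 called lower (6.06%, against 1.05% of all promoters and 2.17% of those of 2 to 4 RPKM), TNFAIP2 (2.77 and 1.71 RPKM) and TNFRSF11B, the osteoprotegerin gene (4.82 and 3.01), and 0 higher, with a median ratio of 0.936. Xenobiotic and aldehyde metabolism had the lowest median of the lists, 0.902, with 15 of 18 ratios below 1 and 2 called lower (11.1%, against the same shares). In it SULT1A1, a sulfotransferase (2.06 and 1.26), and CYP27A1, a sterol hydroxylase (3.57 and 2.19), were called lower. NOTCH and Hedgehog genes had 22 of 25 ratios below 1 and a median of 0.923 with 0 called, and interferon-stimulated genes 29 of 40 and 0.955 with IFITM1 called lower (1.69 and 0.933). NUPR1, a stress-response chromatin protein, was at 1.27 and 0.553 (0.458-fold), GNMT, a glycine methyltransferase, at 1.30 and 0.593 (0.478-fold), WNT10A, a secreted WNT ligand, at 1.19 and 0.640 (0.565-fold) and HOXA4 at 1.07 and 0.580 (0.567-fold). NUPR1, GNMT, WNT10A, HOXA4 and IFITM1 passed the minimum only through the UT library, in which they were high. EFNB3, an ephrin ligand with one of the higher levels among those called, was at 6.73 and 4.25 (0.664-fold). PDLIM2 (2.58 and 1.62), a relative of PDLIM3, was called lower.

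Lists of genes tied to the known chemistry of nickel had 0 or 1 call each. Of all promoters 1.58% were called, and of those of 4 to 8 RPKM 0.212% were called higher and 0.147% lower. So few calls in lists of this size therefore say little about these genes in particular. None of 18 glycolytic HIF targets (median ratio 1.01), 26 other HIF targets (0.924) or 9 HIF subunit and oxygen-sensing genes (1.01) was called. This holds for the listed genes only, and HIF targets outside the lists were not counted. LDHA was at 9.64 RPKM in UT and 9.90 in Ni-E cells, SLC2A1, the glucose transporter GLUT1, at 9.94 and 9.53, VEGFA at 10.8 and 9.01 (0.875-fold) and NDRG1 at 7.15 and 5.93 (0.871-fold). Of the other HIF targets 18 of 26 had a ratio below 1, with CA12, a carbonic anhydrase, at 1.20 and 0.833 (0.730-fold) and BHLHE40, a circadian repressor, at 7.61 and 8.70 (1.20-fold). None of 23 JmjC demethylase genes was called, with a median of 0.999 and a range of 0.799 to 1.10, nor any of 20 genes of H3K4 methyltransferase complexes (1.04). Among 21 metallothionein and zinc transport genes, MT1E, a metal-binding metallothionein, was called lower, at 2.55 and 1.54 RPKM (0.635-fold). MT2A was at 5.37 and 4.39 (0.859-fold) and the zinc exporter SLC30A1 at 11.4 and 10.6 (0.982-fold). None of 25 NRF2 antioxidant targets was called, with NQO1 at 3.08 and 3.37 (1.15-fold) and HMOX1 at 4.94 and 4.29 (0.911-fold). Iron handling genes (17 examined), p53 targets and CDK inhibitors (29) and cell cycle genes (55) also had 0 called, with the same limit.

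**Figure D5:**
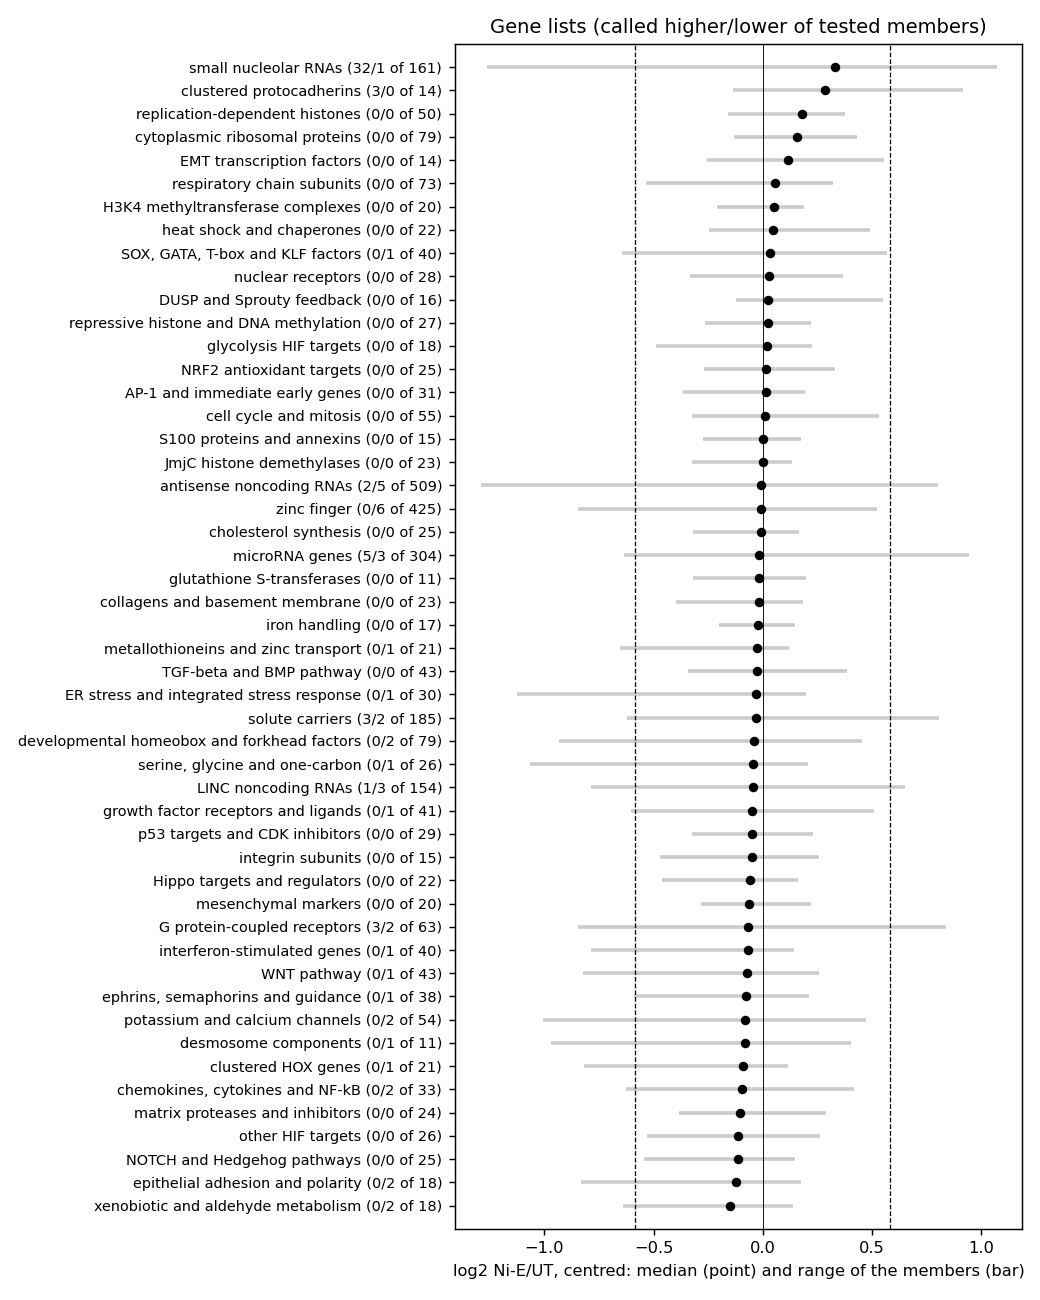
Median (point) and range (bar) of the centred log2 Ni-E to UT ratio for gene lists with at least 10 promoters examined, 1 such list not being shown, with the number called higher and lower of those examined beside the name and dashed lines at 1.5-fold. Small nucleolar RNAs and clustered protocadherins are at the top, and xenobiotic metabolism and epithelial adhesion at the bottom. Of the 14 protocadherins examined, 4 reached 1 RPKM only in Ni-E cells, which raises their median.

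Sequence near the start was read for genes with exactly 1 promoter entry in the RefSeq table (GRCh38.p14), which held for 7778 of those examined, 21 of those called higher and 64 of those called lower. The 250 bases before the start are shown for the 2 promoters with the highest ratios among those reaching 2 RPKM and for 2 of the lowest, ELF3 and ADM2, with CpG dinucleotides in capitals, since CpG-rich promoters are the usual home of H3K4me3. PDLIM3 is on the minus strand at chr4:185535508-185535757, PPP1R14C on the plus strand at chr6:150142794-150143043, ELF3 on the plus strand at chr1:202010337-202010586 and ADM2 on the plus strand at chr22:50481293-50481542.
PDLIM3: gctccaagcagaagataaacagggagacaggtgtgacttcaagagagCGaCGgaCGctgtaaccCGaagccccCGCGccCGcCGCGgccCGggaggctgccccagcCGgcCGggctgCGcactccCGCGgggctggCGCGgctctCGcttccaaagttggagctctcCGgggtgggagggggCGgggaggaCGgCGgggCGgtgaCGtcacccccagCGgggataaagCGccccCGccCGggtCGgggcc
PPP1R14C: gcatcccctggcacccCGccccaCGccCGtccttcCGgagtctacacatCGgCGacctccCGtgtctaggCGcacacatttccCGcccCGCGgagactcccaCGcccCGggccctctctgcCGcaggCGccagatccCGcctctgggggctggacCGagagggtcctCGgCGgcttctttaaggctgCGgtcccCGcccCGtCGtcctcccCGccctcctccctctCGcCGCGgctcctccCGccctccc
ELF3: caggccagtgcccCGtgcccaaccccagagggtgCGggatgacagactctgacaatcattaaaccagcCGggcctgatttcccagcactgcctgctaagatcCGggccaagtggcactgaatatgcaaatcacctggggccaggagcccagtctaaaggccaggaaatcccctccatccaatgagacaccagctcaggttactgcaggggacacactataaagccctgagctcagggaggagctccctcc
ADM2: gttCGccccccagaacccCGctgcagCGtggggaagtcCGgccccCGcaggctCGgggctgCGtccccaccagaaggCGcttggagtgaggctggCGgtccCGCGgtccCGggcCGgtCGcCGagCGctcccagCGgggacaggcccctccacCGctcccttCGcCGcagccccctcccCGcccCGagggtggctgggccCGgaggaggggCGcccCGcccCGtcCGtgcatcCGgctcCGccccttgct
PDLIM3 has 29 CpG and PPP1R14C 28 in this stretch, while ELF3 has 4 and ADM2 29. The median was 22 for all promoters read, 10 for those called higher and 18.5 for those called lower, so both called groups held CpG-poor promoters beside CpG-rich ones.

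Short motifs were counted in the same promoters, from 250 bases before to 50 after the start. The core of the HIF response element, ACGTG on either strand, was in 2 of 21 promoters called higher (9.52%), 13 of 64 called lower (20.3%) and 27.2% of all. CACCTG on either strand, the E-box bound by ZEB and SNAI repressors, was in 8 of 21 called higher (38.1%), 20 of 64 called lower (31.2%) and 17.5% of all. Among promoters of 1 to 5 RPKM in UT cells, the range of most of those called lower, it was in 21.0% and ACGTG in 23.2%. Only 40% of those called higher outside the small nucleolar RNAs lay in this range, and no set at their level was counted. TGACTCA, an AP-1 site, on either strand was in 0 of those called higher, 2 of those called lower and 2.76% of all. TATAAA on the gene's strand was in 0 and 5 of them and in 3.51% of all. At 1 to 5 RPKM in UT cells these 2 motifs were in 3.67% and 4.60%. A match of letters is not a bound site, and the numbers called are small.

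The chromatin dynamic score, in which each level is divided by the median of its library before the root is taken and UT is subtracted from Ni-E, had the sign of the ratio for all 220 called promoters. A 1.5-fold call nearly fixes this sign in advance. It was 0.73 for PPP1R14C, 0.67 for SNORD14D, 0.66 for SNORD14C and 0.56 for PDLIM3, and -0.58 for ELF3, -0.55 for ADM2 and -0.50 for TMEM25. Its median over the promoters examined was 0.0751. The library medians behind the score, 1.57 RPKM in UT and 1.39 in Ni-E cells over all listed promoters, lie far below the median level of the promoters examined.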

How the data were processed

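H3K4me3 ChIP-Seq libraries of UT and Ni-E BEAS-2B cells were compared, with that of Ni-W cells for reference. The authors aligned 50-nucleotide single-end reads to GRCh38/hg38 with BWA, converted them with SAMtools, kept 1 copy of redundant reads, and deposited for every listed gene the RPKM in its promoter window. bedtools is also named in the submitters' processing notes. Input libraries and RT4 RNA-Seq were not used here. No peaks were called and input was not subtracted.

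Deposited RPKM values were whole multiples of a single step in each library (100% within rounding to 3 decimals), taken as the worth of 1 read. A level of 0 was set to 3 reads. Ratio intervals are exact binomial intervals of the reads conditional on their sum, and levels have Poisson intervals. Reads carry no molecular identifiers, so intervals cover counting error only. Positions are RefSeq gene starts on GRCh38.p14, found for 24765 genes (94.4%), 1500 through older symbols. They may differ from the starts the authors used. A host was a listed gene whose span held the window centre. Where RefSeq gave no strand, the strand of an overlapping GENCODE version 44 gene of the same name was used. Short genes still without a strand were placed by their lower coordinate. SNORD80 and SNORD81 were among these, and their sequences were read on the strand of the host gene.

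The genes, lists and comparisons were chosen with earlier results of these data known. Named genes were the 12 highest and 12 lowest ratios among called promoters with at least 2 RPKM in the higher library, 1 per 4 kb, up to 3 called members in each direction per list, members of the HIF, JmjC, metallothionein, epithelial-mesenchymal, adhesion, desmosome, keratin and NRF2 lists, markers, and the 4 highest and 4 lowest symbol families. The other small nucleolar RNA windows and hosts named were chosen after their values were seen. Alternatives were other centring, minimum levels of 0.5, 3 and none, a pseudocount of 1 RPKM, folds of 2 and midway between 1 and 1.5, and 1 gene per locus. Some genes and 1 gene list are not reported here. Scripts were tested on simulated data. The tools were pandas 2.3.3 and numpy 2.4.6 under Python 3.11.15, with scipy 1.17.1 for intervals and plots by matplotlib 3.10.9.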

Additional observations from a re-analysis of the deposited data

How the results depend on the processing

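No paired analysis was possible because each condition has 1 library, and no replicate could be left out. The number of calls depended on every threshold. The 73 higher and 147 lower calls became 118 and 79 when centred on the median of all listed promoters, which moves the median log2 ratio of the promoters examined to 0.11. They became 90 and 92 with quantile normalization and 55 and 212 without centring, so the excess of lower calls depends on the centring. A minimum of 0.5 RPKM gave 285 and 247, 3 RPKM 22 and 24, and no minimum 2319 and 794, so the excess depends on the minimum as well. A pseudocount of 1 RPKM gave 15 and 16, a fold of 2 gave 8 and 27, and a fold midway between 1 and 1.5 gave 279 and 666. Leaving out small nucleolar RNA genes, an alternative added after seeing the data, left 41 higher and 146 lower. All 73 and all 147 kept their direction without centring, with quantile normalization and with the pseudocount. The centre was only -0.07 on the log2 scale, too little to turn a 1.5-fold call. This outcome was thus nearly fixed in advance and is no check of the calls. The median chromatin dynamic score was -0.0481 without scaling and 0 with quantile normalization. Of 54 gene lists with at least 3 promoters examined, 10 had a median at least 0.1 on the log2 scale from that of all promoters, against 6 with quantile normalization and 4 with the pseudocount. The small nucleolar RNA median was 0.33 and became 0.26 without centring, 0.32 with quantile normalization and 0.28 with the pseudocount. The pseudocount also moved 19 of the 78 named ratios and list medians. The 24 named promoters kept their direction under these 3 scalings, which is no check for the same reason. The causes of these shifts were not tested.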
